A study of Homo sapiens with 4 samples.

Results

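The genes described here are 10 genes grouped as B-cell homing receptors and chemokines: CXCR4, CXCR5, CCR7, CCR6, CXCR1, GPR183, S1PR1, CCL3, CCL4 and CCL22. They were read from every probe set of the array whose annotation names exactly 1 of these genes. That rule found 12 probe sets of 54613, for 9 genes of the 19775 that the array reads through a probe set with a single symbol. CCL3 had no such probe set and has no value of its own. CXCR1 was put on the list because its signal in Raji/R was far above that in Raji, so that value is described and not tested. The members were chosen by their roles with results of these arrays in view, and CXCR1 was selected on its signals in Raji/R and Raji.

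The study measured total RNA of 2 human B-cell lymphoma lines and of a subline of each that resists rituximab, an antibody against the B-cell surface protein CD20. The groups were Jeko-1/R, the resistant mantle cell lymphoma subline, against its parent Jeko-1, and Raji/R, the resistant Burkitt lymphoma subline, against its parent Raji. The labels describe the resistant cells as treated with rituximab and the parents as untreated. The dose, the time under the antibody and whether a subline is 1 clone are not given in the sources used here. There was 1 array per group, so within a line no difference has a replicate check and none is tested. Values are MAS5 signals, a brightness per probe set that each array scales to a common target, and a signal is compared between arrays and not between probe sets.

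As array-wide facts, all 6 measured B-cell markers (MS4A1, CD79A, CD79B, CD22, PAX5 and CD74) stood above the floor on every array. The floor is the median of all values, a signal of 77.5, and lower values were raised to it before a ratio was taken. A ratio with 1 value below it is a lower bound. The Raji/R array stood apart, with 55.6% of its probe sets at or above the floor against 48.0% to 48.3% on the other arrays. Median centring of the arrays therefore moved the median log2 ratio of all measured genes in Raji/R to -0.31, against 0.08 with the deposited scaling. Where a gene has several probe sets, their log2 ratios differed by an SD of 0.25 for Jeko-1/R and of 0.49 for Raji/R, which stands in for a measurement error here and does not cover the spread between cultures.

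Chemokines are small secreted proteins that draw leukocytes along their gradients through G-protein-coupled receptors. In B cells, CXCR4 and its ligand CXCL12 hold cells in the bone marrow and in the dark zone of germinal centres. CXCR5 leads cells to the CXCL13 of follicles, and CCR7 leads them to the T-cell zone. GPR183 and S1PR1 answer lipids: GPR183 follows oxysterols to the outer follicle, and S1PR1 follows sphingosine-1-phosphate out of the tissue. CCL3, CCL4 and CCL22 are chemokines that B cells release themselves, and CCL22 attracts T cells that bear CCR4.

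Most of these genes stood further apart between the cell lines than between a subline and its parent. CXCR1 did not, and for CXCR4 and CCR6 it was not clear, since neither passed the test between the lines. GPR183 and S1PR1 had higher signals in the Jeko-1 lines, and CXCR5, CCR7, CCL4 and CCL22 had higher signals in the Raji lines. Such a difference is common on these arrays, since 52.5% of all genes passed the test between the lines. In Jeko-1/R 0 of 7 measured members differed from Jeko-1 by 2-fold or more, where the background is 0.975% of 11588 measured genes (0.38% higher, 0.595% lower). In Raji/R 2 of 8 differed from Raji, CXCR1 and CCL22, both of them higher, where the background is 9.64% of 14642 genes (7.01% higher, 2.64% lower). Since the list was chosen with the Raji ratios known, nothing is read from these shares.

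**Figure D1:**
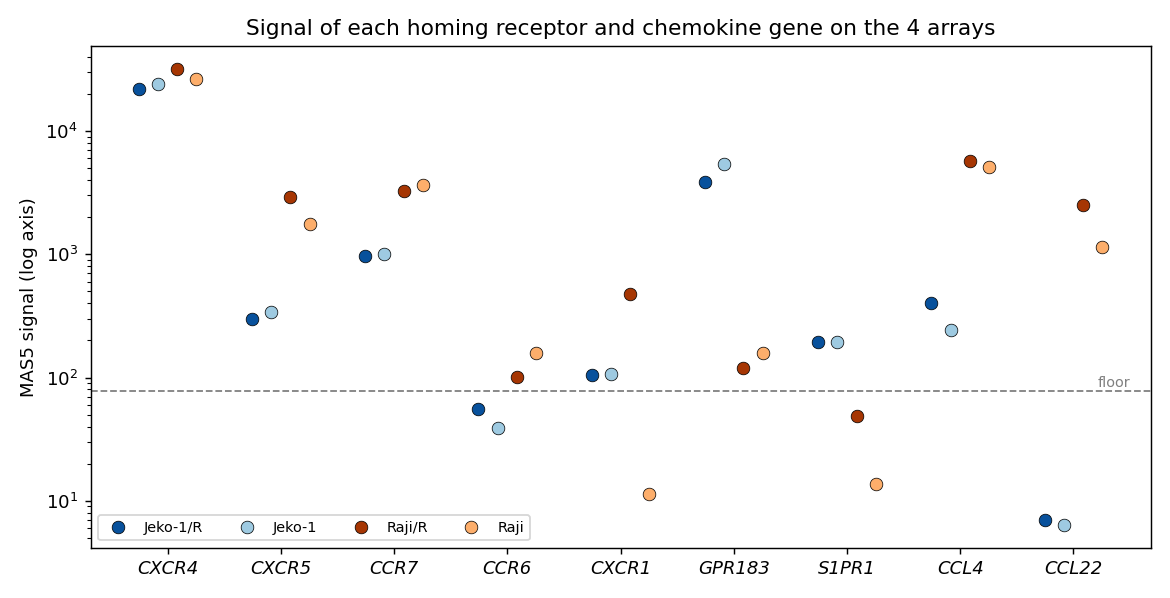
MAS5 signal (log axis) of the 9 genes on the arrays of Jeko-1/R, Jeko-1, Raji/R and Raji, 1 point per array, with the floor of 77.5 as a dashed line. Points are to be compared within a gene: for GPR183 the 2 Jeko-1 lines lie far above the 2 Raji lines, for CCL22 far below them, and for CXCR1 the Raji/R array lies above the other arrays.

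CXCR4 was strongly expressed on all 4 arrays. Its brightest probe set gave signals of 21914 in Jeko-1/R and 24087 in Jeko-1, and of 31967 in Raji/R and 26264 in Raji. The log2 ratio was -0.14 for Jeko-1/R, and for Raji/R it was 0.28. All 3 CXCR4 probe sets were lower in Jeko-1/R than in Jeko-1, with a mean log2 ratio of -0.27 ± 0.14 (SD between probe sets, n = 3), and all 3 were higher in Raji/R than in Raji, at 0.26 ± 0.05. Both changes are well short of 2-fold. Between Raji/R and Raji, adjustment for a trend with signal left CXCR4 at 0.10, and median centring turned it to -0.13. The same adjustment moved the dim gene CCR6 further, from -0.64 to -1.24.

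CXCR5, the follicle receptor, differed by line. Its brighter probe set gave 298 in Jeko-1/R and 340 in Jeko-1, and 2890 in Raji/R and 1776 in Raji. Both Raji arrays were higher than both Jeko-1 arrays. Within the lines the log2 ratio was -0.19 for Jeko-1/R, and for Raji/R it was 0.70. The dimmer CXCR5 probe set stood below the floor in the Jeko-1 pair and gave 152 in Raji/R and 164 in Raji, a log2 ratio of -0.11, so it did not share the higher value of the brighter probe set in Raji/R.

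CCR7, the receptor for the T-cell zone chemokines CCL19 and CCL21, gave 962 in Jeko-1/R and 1010 in Jeko-1. For the Burkitt lines it gave 3251 in Raji/R and 3670 in Raji. The log2 ratios were -0.07 and -0.17, both smaller than the spread between probe sets of a gene. CCR6, the receptor of CCL20, was dim throughout. It stood below the floor at 55.6 in Jeko-1/R and 38.7 in Jeko-1, and just above it at 101 in Raji/R and 157 in Raji. The log2 ratio in Raji/R was -0.64, which was -1.24 with quantile normalization, -1.24 with the signal adjustment and -1.05 with median centring, past 2-fold in each case.

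CXCR1, a receptor for the neutrophil chemokine CXCL8, gave 474 in Raji/R against 11.3 in Raji. The lower value lies below the floor, so the signal was at least 6.12-fold higher in Raji/R. This ratio ranked 2 from the highest among 14642 measured genes. Of 2456 genes that lay below the floor in Raji and reached it in Raji/R, CXCR1 had the highest Raji/R signal, and the median of these genes was 1.51 times the floor. CXCR1 was chosen for this rise, so these places restate the choice and lend the rise no support. In the mantle cell pair CXCR1 gave 105 in Jeko-1/R and 107 in Jeko-1, above the floor and alike. The size of the rise rests on the floor, with a log2 ratio of 2.61 here, 0.37 with the floor at the 75th percentile of all values and 5.39 with no floor. A single probe set reads CXCR1, and no second one was available to set beside it.

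CXCR2, which binds CXCL8 as well and lies near CXCR1 on chromosome 2, went the other way. It gave 168 in Raji/R against 359 in Raji, a log2 ratio of -1.09, and -0.87 with a pseudocount in place of the floor. In the Jeko-1 pair it was below the floor, at 19.3 in Jeko-1/R and 1.81 in Jeko-1. Both receptors are typical of neutrophils, so other neutrophil markers are given beside them. Of 13 such markers, CXCR2 among them, 6 reached the floor in Raji/R and 4 in Raji, with summed signals of 3666 and 2950. In the Jeko-1 pair 3 reached it in Jeko-1/R and 2 in Jeko-1, with sums of 601 and 616. S100A8, a calcium-binding protein of myeloid cells, gave 227 in Raji/R and was at least 2.93-fold higher there than in Raji. Its other probe set had a log2 ratio of 0.38 in the Raji pair after flooring. S100A9, S100A12 and CEACAM8 were below the floor on all 4 arrays. The neutrophil granule enzymes MPO and ELANE and the receptor FCGR3B were below the floor on all 4 arrays, and CSF3R was below it in Raji/R and Raji. Most of the sum came from MMP9, a secreted protease (1803 in Raji/R and 1358 in Raji), and CAMP, an antimicrobial peptide (890 in Raji/R and 839 in Raji), both above the floor on all 4 arrays. LTF stood at 113 in Raji/R and 116 in Raji, and FPR1 at 80.2 in Raji/R and 74.1 in Raji. The part of other cells in the CXCR1 signal was not tested.

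The 3 other genes nearest to CXCR1 in floored log2 signal over the 4 arrays were KRT18, AGRN and OR2C1, at distances of 0.34, 0.34 and 0.54. Those nearest to CCL22 were CLEC11A, LSAMP and ASB2, at 0.51, 0.55 and 0.62.

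The bases before the start of CXCR1 are shown because it had the largest ratio of these genes, and those of GPR183 because it stood far apart between the lines. Each is the 250 bases 5′ of the start in the RefSeq table, build GRCh38.p14, on the gene's strand, and 8 of the 10 listed genes had such a window. Capitals mark matches on either strand to the motifs searched: kappaB (GGG, 2 bases of any kind, then TTTCC), PU.1 (GAGGAAGT), the CACCC box (CACCC), the TATA box (TATAAA), the octamer (ATGCAAAT) and AP-1 (TGANTCA).
CXCR1, chr2:218166963-218167212, minus strand: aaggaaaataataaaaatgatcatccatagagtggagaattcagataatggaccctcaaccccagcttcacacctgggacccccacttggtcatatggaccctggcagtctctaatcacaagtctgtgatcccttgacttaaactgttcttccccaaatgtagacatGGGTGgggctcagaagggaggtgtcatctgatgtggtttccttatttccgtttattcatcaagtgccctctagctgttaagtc
GPR183, chr13:99307400-99307649, minus strand: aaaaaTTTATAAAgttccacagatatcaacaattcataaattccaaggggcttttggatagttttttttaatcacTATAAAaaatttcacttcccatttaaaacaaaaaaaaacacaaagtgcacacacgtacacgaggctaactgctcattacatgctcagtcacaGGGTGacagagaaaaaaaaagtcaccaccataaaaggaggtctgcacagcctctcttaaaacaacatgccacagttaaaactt
The CACCC box was present in both windows, and 54.7% of the 35116 windows in the table hold it. TATA box letters were present in the GPR183 window, with the nearest 175 bases before the start, and 10.7% of all windows hold them. The PU.1, kappaB, octamer and AP-1 letters were in neither window and in 2.17%, 1.73%, 1.63% and 6.57% of all windows.

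GPR183, the oxysterol receptor also known as EBI2, was far higher in both Jeko-1 lines. It gave 3864 in Jeko-1/R and 5404 in Jeko-1, against 119 in Raji/R and 159 in Raji. It was lower in each subline than in its parent, with log2 ratios of -0.48 for Jeko-1/R and of -0.42 for Raji/R, and neither reached 2-fold. For Jeko-1/R the ratio ranked 591 from the lowest of 11588 genes and is larger than the probe-set SD of 0.25. For Raji/R it is within the SD of 0.49, and with quantile normalization it was -0.94 and with the signal adjustment -0.96. CH25H, the enzyme that makes the oxysterol precursor of its ligand, followed the same line order, with 340 in Jeko-1/R and 417 in Jeko-1, against values below the floor of 67.3 in Raji/R and 5.28 in Raji.

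S1PR1, the egress receptor, gave 194 in Jeko-1/R and 194 in Jeko-1, a log2 ratio of 0.001. Both Raji values were below the floor, at 49.1 in Raji/R and 13.8 in Raji, and no ratio was taken. KLF2, a transcription factor known to activate S1PR1 in lymphocytes, was named after its values were seen. It gave 1258 in Jeko-1/R and 1166 in Jeko-1, against 10.2 in Raji/R and 113 in Raji. CD69, which removes S1PR1 from the cell surface, gave 2477 in Jeko-1/R and 2118 in Jeko-1, against 660 in Raji/R and 517 in Raji, and was also named after its values were seen. S1PR2, which confines germinal-centre B cells, had the opposite line order to S1PR1 in its brighter probe set. That probe set gave 125 in Jeko-1/R and 173 in Jeko-1, against 6449 in Raji/R and 4758 in Raji. This contrast was picked after the values were seen.

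Of the chemokines, CCL22 was a Raji gene. It gave 6.95 in Jeko-1/R and 6.39 in Jeko-1, far below the floor, and 2501 in Raji/R against 1152 in Raji. The log2 ratio in Raji/R was 1.12, above 2-fold with both values measured. It ranked 762 from the highest ratio of 14642 genes, and median centring left it at 0.71, below 2-fold. CCL4 gave 404 in Jeko-1/R against 241 in Jeko-1, a log2 ratio of 0.74 that ranked 128 from the highest of 11588 genes. With the floor at the 75th percentile it was 0.14. The Burkitt lines gave CCL4 signals of 5743 in Raji/R and 5149 in Raji, a log2 ratio of 0.16, and -0.25 with median centring. CCL4 was thus the member with the largest ratio in the Jeko-1 pair, and CXCR1 and CCL22 those with the largest in the Raji pair.

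**Figure D2:**
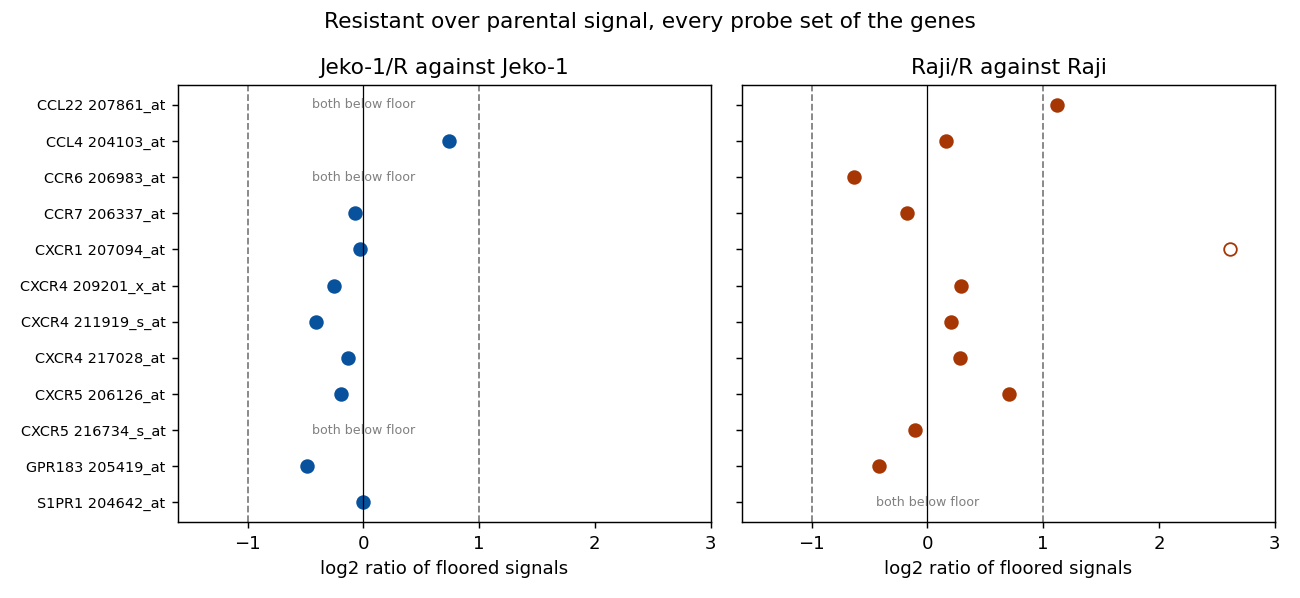
Log2 ratio of resistant over parental signal for each of the 12 probe sets, Jeko-1/R against Jeko-1 on the left and Raji/R against Raji on the right, with dashed lines at 2-fold. Filled points have both values at or above the floor and the open point, CXCR1 in the Raji pair, is a lower bound; all Jeko-1 points lie inside 2-fold, and CXCR1 and CCL22 lie outside it in the Raji pair.

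The median log2 ratio of the measured members was -0.07 in Jeko-1/R (7 genes, 2 above 0), beside 0.001 for all 11588 genes. In Raji/R it was 0.22 (8 genes, 5 above 0), beside 0.08 for all 14642 genes. The members that did not pass 2-fold spanned log2 ratios of -0.48 to 0.74 in Jeko-1/R and -0.64 to 0.70 in Raji/R.

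**Figure D3:**
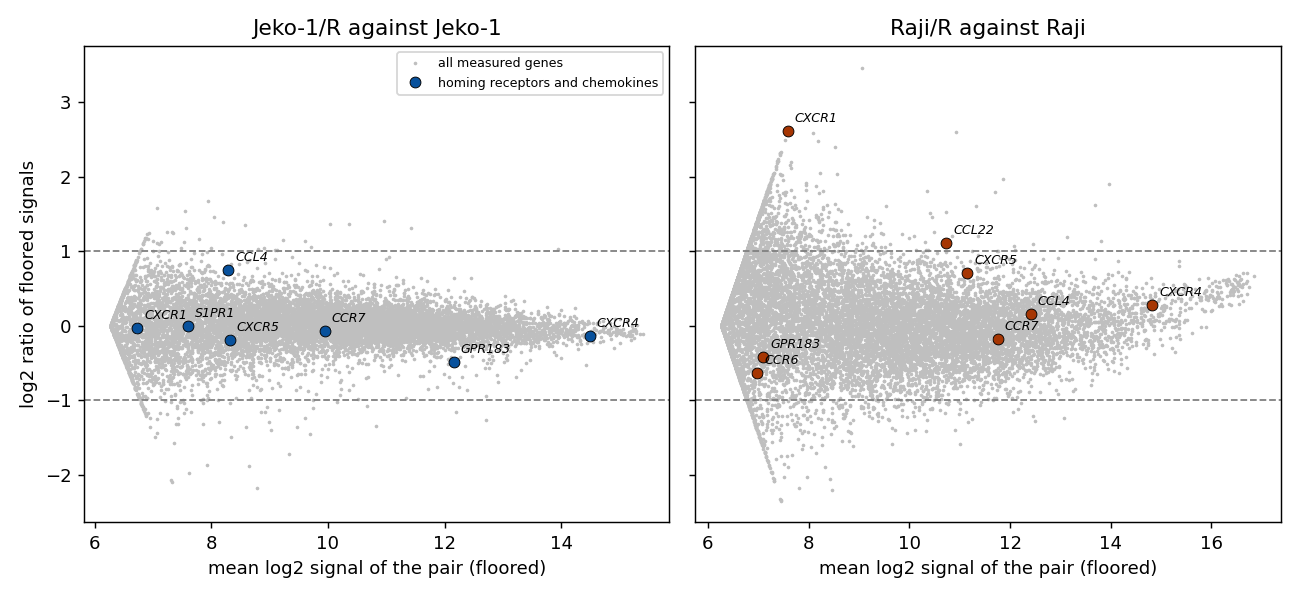
Log2 ratio of resistant over parental signal against mean log2 signal of the pair for all measured genes (grey) and for the homing receptors and chemokines (coloured), with dashed lines at 2-fold. The cloud is wider in the Raji pair, above all at low signal, where CXCR1 lies at 2.61; the straight left edges are genes with 1 value at the floor.

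The difference between the cell lines was tested, since the stated rule did not use it. The members were still chosen with results of these arrays in view, so the p-values are not independent of that choice. The 2 arrays of Jeko-1/R and Jeko-1 were set against the 2 arrays of Raji/R and Raji with limma, over 15575 genes. The 2 arrays of a line are a parent and its subline, so the p-values measure the spread between these and not between separate cultures. Of all genes 52.5% passed an adjusted p of 0.05, so a call is the common case here. CXCR1 was left out. Of the 5 members at or above the floor on all 4 arrays 4 passed, 1 of them higher in the Jeko-1 lines and 3 higher in the Raji lines. S1PR1, CCL22 and CCR6 entered the fit through 1 line alone, and their other line was raised to a single floor value with no spread, so no p is given for S1PR1, CCL22 and CCR6. The background for each direction is 22.9% of genes higher in the Jeko-1 lines and 29.6% higher in the Raji lines.

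GPR183 was 33.3-fold higher in the Jeko-1 lines, a log2 difference of 5.06 ± 0.26 (SE, 2 arrays per line; adjusted p = 0.00108). S1PR1 was at least 2.50-fold higher, with both Raji values below the floor and mean measured log2 signals of 7.60 in the Jeko-1 lines and 4.70 in the Raji lines. In the other direction CCL22 was at least 21.9-fold lower in the Jeko-1 lines than in the Raji lines, with mean measured log2 signals of 2.74 and 10.73. CCL4 was lower by a log2 difference of -4.12 ± 0.30 (adjusted p = 0.00179), CXCR5 by -2.83 ± 0.29 (adjusted p = 0.00348) and CCR7 by -1.81 ± 0.14 (adjusted p = 0.00208). For each of these 6 genes the 2 Jeko-1 arrays lay on one side of the 2 Raji arrays, by more than a subline differed from its parent.

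CCR6 did not pass in the fit, with a log2 difference of -0.70 and both Jeko-1 values below the floor. CXCR4 did not pass either, at -0.33 ± 0.17 (adjusted p = 0.18), and its probe sets disagreed. The brightest was higher on both Raji arrays, while the others gave 6956 and 6181 in Jeko-1/R and 8310 and 8203 in Jeko-1, against 5028 and 4173 in Raji/R and 4111 and 3619 in Raji. The mean of the probe sets gave 0.43 and quantile normalization 0.81, so no direction between the lines is given for CXCR4. Without the Jeko-1/R array, or without the Jeko-1 array, no gene passed, and the adjusted p of GPR183, CCL4, CXCR5 and CCR7 was 0.0603 to 0.105. Without the Raji/R or the Raji array CCL4 did not pass. For CCR6 such a fit takes its spread from the Jeko-1 values, both set to the floor, so nothing is read from it.

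Other genes of the same systems were read from lists of the families. Counts between the lines stand beside 22.9% of all genes higher in the Jeko-1 lines and 29.6% higher in the Raji lines, and they include genes that 1 line alone brought above the floor. Of 18 conventional chemokine receptors, 16 had a probe set. In the Jeko-1 pair 7 were measured and 0 passed 2-fold. Between Raji/R and Raji 10 were measured, with CXCR1 higher and CXCR2 lower. Between the lines 12 were tested without CXCR1, 2 were higher in the Jeko-1 lines and 3 in the Raji lines, with a median log2 difference of -0.36 beside -0.29 for all genes. The 2 were CCR1, a receptor of CCL3 and CCL5, and CCR2, the monocyte receptor of CCL2, named after their values were seen. Both were below the floor in Raji/R and Raji and entered through the Jeko-1 lines alone. The other CCR1 probe set had floored log2 ratios of -0.84 for Jeko-1/R and 0.76 for Raji/R, so it reached the floor in both pairs. CCR2 gave 2312 in Jeko-1/R and 1586 in Jeko-1, against 15.4 in Raji/R and 28.3 in Raji, at least 24.7-fold higher in the Jeko-1 lines.

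Atypical receptors bind chemokines without the usual G-protein signal. All 5 had a probe set, and 0 changed 2-fold within a line. ACKR3, which takes up the CXCR4 ligand CXCL12, gave 911 in Jeko-1/R and 1377 in Jeko-1, against 17476 in Raji/R and 19442 in Raji. It was lower in the Jeko-1 lines by a log2 difference of -4.04 (adjusted p = 0.00139), and by -1.94 with the mean of its probe sets. The call was lost without any 1 of the 4 arrays (adjusted p = 0.0634 without Raji/R and 0.0546 without Raji). CXCL12 itself and the CXCR5 ligand CXCL13 were below the floor on all 4 arrays.

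Of 31 CC, CX3C and XC chemokines, 22 had a probe set of their own. In the Jeko-1 pair 3 were measured, with 0 past 2-fold. Between Raji/R and Raji 12 were measured, 2 higher and 1 lower. The higher ones were CCL22 and CCL18, a macrophage chemokine (246 in Raji/R and 104 in Raji, log2 ratio 1.25). CCL18 fell short of 2-fold with median centring (0.84), a pseudocount (0.89), the mean of its probe sets (0.79) and the signal adjustment (0.83), and its other probe set stood at 0.33. The lower one was CCL25, the gut ligand of CCR9, at 45.1 in Raji/R and 158 in Raji (at least 2.04-fold). Between the lines 12 were tested, 6 passed, and all 6 were higher in the Raji lines. The median log2 difference of the 12 was -0.85, beside -0.29 for all genes, and it carries the same limit.

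Of 17 CXC chemokines, 1 was measured between Jeko-1/R and Jeko-1, and 7 were between Raji/R and Raji, where CXCL11, an interferon-induced ligand of CXCR3, was lower at 80.8 in Raji/R and 201 in Raji (log2 ratio -1.31). Its other probe set stood at -0.15 after flooring, and a pseudocount left the ratio at -0.87. CXCL10, a related interferon-induced ligand, gave 38.1 in Jeko-1/R and 44.0 in Jeko-1, against 1006 in Raji/R and 1197 in Raji, at least 14.2-fold lower in the Jeko-1 lines.

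Among 13 sphingosine-1-phosphate receptors and enzymes on the array, 0 of 8 passed 2-fold in the Jeko-1 pair. Between Raji/R and Raji 1 of 9 was higher, the receptor S1PR3 (at least 2.17-fold, at 168 in Raji/R and 67.4 in Raji). S1PR3 fell short of 2-fold with median centring (0.81), a pseudocount (0.82), the signal adjustment (0.50) and the mean of its probe sets (0.27), and its other probe set had a ratio of 0 after flooring. Another was lower, the lipid phosphatase PLPP3 (at least 2.33-fold, at 50.6 in Raji/R and 180 in Raji). The other PLPP3 probe sets stood at log2 ratios of -0.79 and 0 after flooring. Between the lines 2 of 12 tested were higher in the Jeko-1 lines and 4 in the Raji lines, with a median log2 difference of -0.47. SGPP1, a sphingosine-1-phosphate phosphatase, was higher in the Jeko-1 lines, with 14312 in Jeko-1/R and 13471 in Jeko-1, against 2217 in Raji/R and 2172 in Raji (adjusted p = 0.00101). S1PR2 was lower in the Jeko-1 lines by a log2 difference of -5.23 (adjusted p = 0.00103). Its other probe set had a ratio of 0 after flooring in both pairs, so the difference rests on its brighter probe set.

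Of the oxysterol enzymes, CYP27A1, a mitochondrial sterol hydroxylase, was the one past 2-fold in a line. It gave 265 in Raji/R against 77.1 in Raji, just below the floor (at least 3.42-fold higher), and 82.1 in Jeko-1/R against 84.4 in Jeko-1. CH25H was at least 4.86-fold higher in the Jeko-1 lines with the floor at the median. The log2 difference of 2.28 became 0.09 when the 75th percentile was the floor; without a floor it was 4.32 (adjusted p = 0.0806). CYP7B1, also on the list, was below the floor on all 4 arrays, at 8.42 in Jeko-1/R, 12.1 in Jeko-1, 24.1 in Raji/R and 58.8 in Raji. HSD3B7, a further enzyme of the list, had no probe set of its own.

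The list of signalling genes below the receptors had no member past 2-fold within a line. Of its 28 genes, 26 were measured between Jeko-1/R and Jeko-1, 27 were between Raji/R and Raji, and 0 passed 2-fold in either. Between the lines 3 of 27 were higher in the Jeko-1 lines and 16 in the Raji lines, with a median log2 difference of -0.96 beside -0.29 for all genes. As for every list, these counts and the median were taken with the deposited scaling alone. RAC2, the haematopoietic Rac GTPase that drives actin at the leading edge, gave 2956 in Jeko-1/R and 2189 in Jeko-1, against 24448 in Raji/R and 18373 in Raji, and was named after its values were seen. RHOA was lower in the Jeko-1 lines by -1.03 (adjusted p = 0.0112), which was -0.19 (adjusted p = 0.335) with quantile normalization.

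The 10 measured regulators of receptor level and transcription had 0 members past 2-fold in either pair, and between the lines 2 were higher in the Jeko-1 lines and 4 in the Raji lines, with a median of -0.48. The 2 were KLF2 and CD69, and GRK5, a kinase that turns off G-protein-coupled receptors, was among the 4. GRK5 gave 676 in Jeko-1/R and 757 in Jeko-1, against 3230 in Raji/R and 3951 in Raji (adjusted p = 0.00186), although the call was lost with the mean of its probe sets (adjusted p = 0.0766) and without x_at and s_at probe sets (0.368). Other positioning receptors, 9 of 11 on the array, had 0 past 2-fold within a line. P2RY8, a confinement receptor of germinal centres, gave 2928 in Jeko-1/R and 2639 in Jeko-1, against 9000 in Raji/R and 7231 in Raji (adjusted p = 0.00463). Calls between the lines in all these lists were lost when either Jeko-1 array was left out, since no gene passed then.

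**Figure D4:**
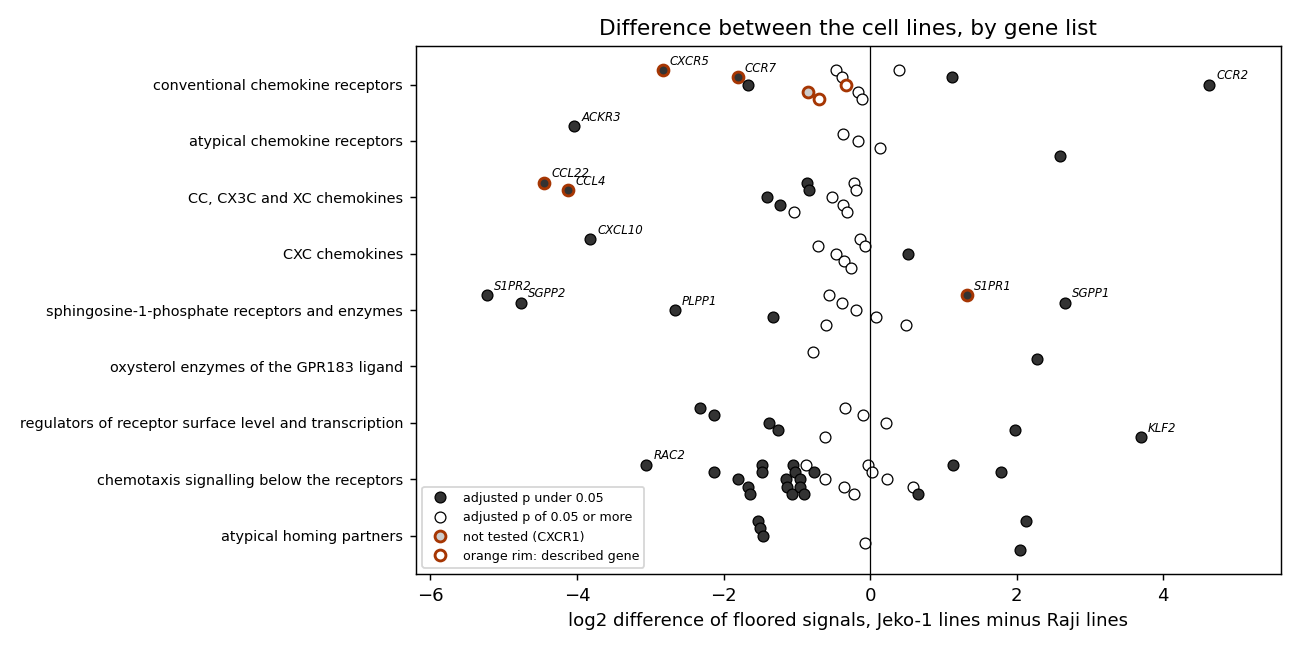
Log2 difference of floored signals, Jeko-1 lines minus Raji lines, for the measured genes of each list; points right of 0 are higher in the Jeko-1 lines. Filled points passed an adjusted p of 0.05 and orange rims mark the described genes: S1PR1 lies to the right and CXCR5, CCR7, CCL4 and CCL22 to the left, as do most genes of chemotaxis signalling. GPR183 belongs to none of the lists and is not drawn.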

How the data were processed

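The authors deposited log2 MAS5 signals per probe set, per the submitters' processing notes, with no version given in the sources used here. Base 2 was inferred: it gives every array a trimmed mean signal of 494 to 497, near a common target. MAS5 scaling leaves differences that depend on signal level. Gene symbols came from the platform annotation, checked against the RefSeq table of GRCh38.p14 (41091 with 1 symbol, 1801 with several, 11721 with none). Each gene took its brightest probe set on average. Values under the pooled median (log2 6.28) were raised to it, and 2-fold counted as changed.

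The lines were compared with limma 3.58.1 (R 4.3.3), with cell line as the only term, empirical Bayes moderation and two-sided Benjamini-Hochberg adjustment over the 15575 genes that reached the floor on any array. The fit was run on simulated data with independent noise of equal variance. Those data had no flooring and no parent and subline, so they do not check the p-values given here. Members and gene lists were chosen with earlier results of these data known. The text names all members, list genes past 2-fold in a line (up to 4 per list and line), and 1 gene of high signal per list; others are marked as named later. The 6 motifs were chosen after the windows were seen, from a longer set tried. Alternatives covered normalization, floor, pseudocount of 64, probe set choice, lowess adjustment (fraction 0.3), model and single arrays. Python 3.11.15 with numpy 2.4.6, pandas 2.3.3, statsmodels 0.14.6 and matplotlib 3.10.9 was used. The number of arrays limits the precision.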

Additional observations from a re-analysis of the deposited data

Results flagged for a closer look

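CXCR4, CXCR5 and CXCR1, each read by its brightest probe set, had log2 ratios of opposite sign in the sublines, below 0 in Jeko-1/R and above 0 in Raji/R. The ratio in Raji/R exceeded that in Jeko-1/R by 0.42 for CXCR4, 0.89 for CXCR5 and 2.64 for CXCR1. With 1 array per group the difference was not tested, and of these ratios CXCR1 in Raji/R alone passed 2-fold. For CXCR1 the Jeko-1/R ratio was -0.03, so nearly all of its difference lies in the Raji pair. The other CXCR5 probe set had the opposite signs, 0.32 for Jeko-1/R without a floor and -0.11 for Raji/R, and the mean of both gave 0.07 in Jeko-1/R. For CXCR4 all 3 probe sets showed both directions, while median centring gave -0.13 in Raji/R.

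A signal outside the comparisons came from the probe set whose annotation lists CCL3 together with the near-identical copies CCL3L1 and CCL3L3, and which cannot be assigned to any of these 3 genes. It gave 774 in Jeko-1/R against 439 in Jeko-1, a log2 ratio of 0.82, and 34781 in Raji/R against 20952 in Raji, a log2 ratio of 0.73. It was higher in both sublines, and neither ratio reached 2-fold. CCL4, the neighbouring chemokine, had 0.74 and 0.16.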

How the results depend on the processing

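In the Jeko-1 pair 0 members passed 2-fold under any of 9 alternatives. In the Raji pair 1 to 3 did: 1, CCL22, when the 75th percentile was the floor, and 3 with quantile normalization, the signal adjustment or the floor at the 25th percentile. The count of all genes past 2-fold was 113 in the Jeko-1 pair (26 to 1289 under the alternatives) and 1412 in the Raji pair (139 to 4806), lowest with the floor at the 75th and highest at the 25th percentile. Of changed genes in the Raji pair 72.7% were higher, 53.6% with quantile normalization, 30.5% with the signal adjustment and 22.1% with median centring. Between the lines 4 of the 5 members at or above the floor on all 4 arrays passed in limma. These were GPR183, CCL4, CXCR5 and CCR7. They also passed under each alternative that kept all 4 arrays, with adjusted p of at most 0.0118, 0.0193, 0.0307 and 0.0131. Of all genes 8175 passed. Without Jeko-1/R or Jeko-1 the calls were lost, and those fits had 1 residual degree of freedom, from the Raji pair. CXCR4 reversed to 0.81 with quantile normalization (adjusted p = 0.0101) and 0.43 with the mean of probe sets (0.139), within a range of 0.0101 to 0.767 over its alternatives, and the difference of CYP27A1 spanned 0.10 (without Raji/R) to -1.67 (without Raji). The labels number no replicates. A fit with resistance state as a second term, which sets parent beside parent and subline beside subline, left 1 residual degree of freedom and passed 8319 genes and 6 members.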
